A study of Rattus norvegicus with 12 samples.

Results

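The matrix metalloproteinase (MMP) and ADAMTS protease genes studied here were Mmp2, Mmp3, Mmp9, Mmp12, Mmp14, Mmp16, Adamts1, Adamts4, Adamts5 and Adamts9. They were taken as every probe set that the array annotation assigns to 1 of these genes alone, which gave 15 probe sets of 31099 and all 10 genes of the 14217 that probe sets of a single gene represent. The animals were 12 Sprague-Dawley rats, male and 8 weeks old, and RNA of each rat's left hemisphere was put on 1 array. Stroke was modelled in 7 rats by closing and then reopening the middle cerebral artery (MCAO), 5 rats were Sham-operated, and the tissue came from 24 h after reperfusion. All rats were of the same strain, sex and age, no drug or genetic change is named for either group, and the labels do not say which side was occluded.

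MMPs and ADAMTS enzymes are zinc-dependent proteases made as inactive precursors. MMPs cut collagens, laminins and other matrix proteins, and in the injured brain they are known for the breakdown of the vascular basement membrane. ADAMTS1, ADAMTS4, ADAMTS5 and ADAMTS9 cut lecticans, the proteoglycans that form the matrix around neurons. Both families are held in check by tissue inhibitors of metalloproteinases (TIMPs). In whole tissue, a change in the number of cells of a type and a change in RNA per cell cannot be told apart.

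RefSeq promoter sequences on the GRCr8 assembly matched 5 of the 10 genes, namely Mmp3, Mmp12, Adamts1, Adamts4 and Adamts9, and no entry was held for Mmp2, Mmp9, Mmp14, Mmp16 or Adamts5. The 120 bases before the annotated start are shown for 4 of them, and those of Adamts4 are not shown. Capitals mark a match to any motif searched in the 250 bases before the start. The motifs were an AP-1 site (TGANTCA), a PEA3/ETS site (AGGAAG), an NF-kB-type site (GGANTTNCC), a STAT site (TTCNNNGAA) and a hypoxia element (ACGTG) on both strands, and a TATA box (TATAAA) on the gene's strand.
Mmp3, GRCr8 chr8:12925161-12925280, + strand: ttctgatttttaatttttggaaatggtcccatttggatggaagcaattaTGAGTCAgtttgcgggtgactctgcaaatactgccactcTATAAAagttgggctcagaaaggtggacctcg
Mmp12, GRCr8 chr8:12866532-12866651, + strand: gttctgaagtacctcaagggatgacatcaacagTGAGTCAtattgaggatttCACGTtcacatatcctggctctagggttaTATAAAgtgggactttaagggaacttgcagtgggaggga
Adamts1, GRCr8 chr11:38427385-38427504, - strand: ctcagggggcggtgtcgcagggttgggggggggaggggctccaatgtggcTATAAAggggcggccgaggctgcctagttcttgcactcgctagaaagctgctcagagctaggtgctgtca
Adamts9, GRCr8 chr4:127019877-127019996, - strand: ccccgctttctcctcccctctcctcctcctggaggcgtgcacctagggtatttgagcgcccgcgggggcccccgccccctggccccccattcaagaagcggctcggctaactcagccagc

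The sequences of Mmp3 and Mmp12 each held an AP-1 match, at 71 to 65 and 87 to 81 bases before the start, and a TATA box match, at 32 to 27 and 39 to 34 bases. Adamts1 held a TATA box match at 70 to 65 bases and no AP-1 match, and Adamts9 held none of the 6 motifs. The 5 promoters thus had an AP-1 match in 2, where 6.3% of 33469 promoters of the same length had one, and a TATA box match in 3, against 8.1%. A PEA3/ETS match was found in 2 (Mmp3 and Adamts4), against 29.5%, a STAT match in 1 (Adamts4), against 7.7%, a hypoxia element in 1 (Mmp12), against 16.6%, and an NF-kB-type match in 0, against 3.0%. The 250 bases were 38.8% G and C in Mmp3 and 71.6% in Adamts9. A match is only a run of letters, and whether any factor binds there was not measured.

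Values are the deposited signals, taken as log2: the base is not stated, and every fold given here assumes base 2. Array medians lay between 7.23 and 7.27, so no further scaling was applied. Of the deposited probe sets other than controls, 62.5% barely moved over the 12 arrays (SD under 0.01), and these are called near-constant. Among the 15 protease probe sets 6 were near-constant and 9 varied. A gene was tested where its signal exceeded 6.61 in at least 5 arrays, which 12153 genes did, 6339 of them varying. All 11 neuron and all 8 astrocyte markers passed this filter. As 12153 of 14217 genes did so, passing it does not by itself show that a gene was expressed. The rat MCAO 4 stood apart in several proteases, so values without it are given below. The control probe sets of MCAO 6 did not match those of the other arrays, with 0 of 40 controls that were near-constant over the other 11 arrays within 0.05 of them, whereas all 19398 such gene probe sets were. The beta-actin 3' minus 5' signal, a sign of RNA degradation, was 1.27 to 1.47 in the other 6 MCAO arrays and 1.40 to 1.46 in Sham (exact permutation p = 0.13).

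The series makes 1 comparison, MCAO against Sham. Adamts1 rose 5.68-fold, Mmp9, Mmp12 and Mmp14 each rose about 2-fold, Adamts9 rose 1.71-fold, and Adamts5 and Adamts4 rose by less. Mmp3 was 1.93-fold higher in a fit without the filter. No readable difference was seen for Mmp2 or Mmp16, whose probe sets were all near-constant. Of 9 genes tested, 7 varied and all 7 were higher at a limma adjusted p under 0.05, while 35.2% of all varying genes were called higher and 34.2% lower (44.3% of all tested genes were called in either direction). At least 2-fold higher were 4 of them, against 3.44% of varying genes. These shares are no support of their own: the 7 genes include Mmp9, Mmp12 and Adamts5, for which 0 Sham arrays exceeded the filter, so that they were tested only through their MCAO signal. Adamts1, Adamts4, Adamts9 and Mmp14 exceeded it in all 5 Sham arrays.

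**Figure D1:**
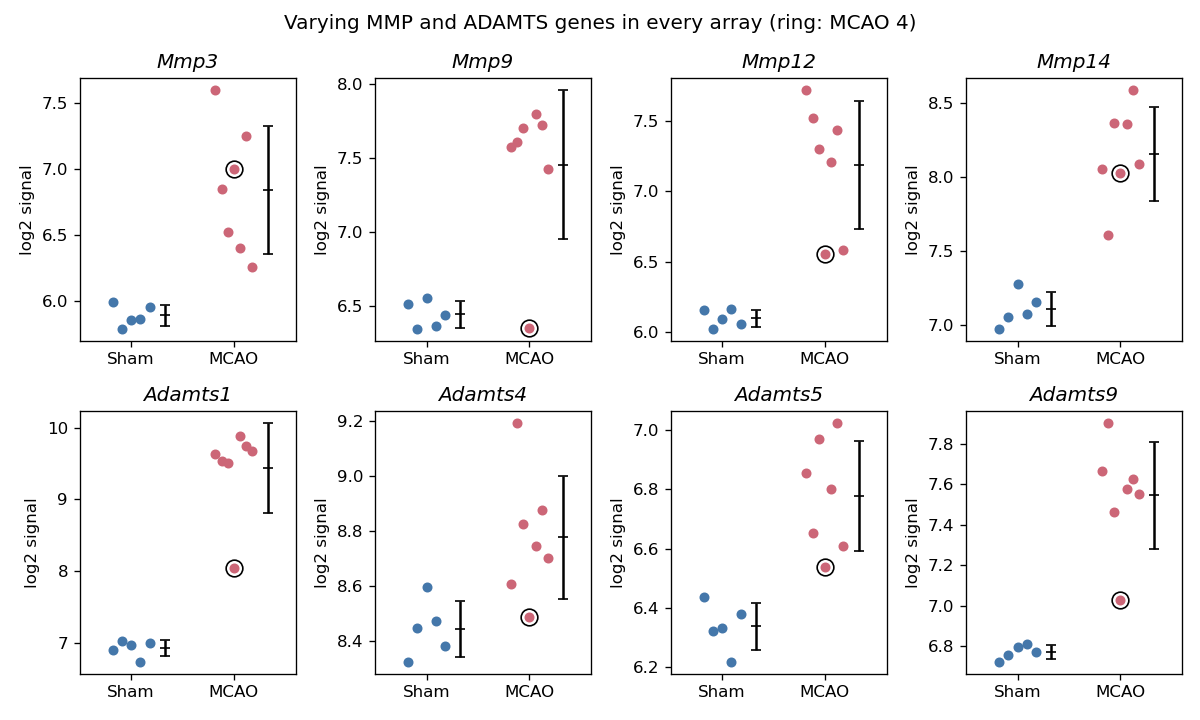
Log2 signal (vertical axis) of the 8 varying proteases in each of 5 Sham and 7 MCAO arrays, 1 point per rat, with the group mean and SD as a bar beside the points and MCAO 4 ringed. The groups do not overlap for Adamts1, Adamts5, Adamts9, Mmp3, Mmp12 and Mmp14, and the ringed rat lies in the Sham range for Mmp9 and Adamts4.

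Among the lectican-cutting enzymes, Adamts1 (Entrez Gene 79252), which also limits vessel growth, had Sham signals of 6.90, 7.02, 6.97, 6.74 and 6.99. In MCAO the lowest was 8.04, the median 9.63 and the highest 9.89. The groups did not overlap, and 6 MCAO rats lay within 9.51 to 9.89 while MCAO 4 lay far below them. The log2 difference was 2.51 ± 0.28 (SE; limma adjusted p = 0.000495), from means of 9.43 ± 0.63 in MCAO (SD, n = 7) and 6.92 ± 0.11 in Sham (SD, n = 5). Without MCAO 4 it was 2.74 ± 0.08.

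Adamts9 (Entrez Gene 312566), an aggrecan-cutting enzyme also known from endothelial cells, had Sham signals of 6.72, 6.76, 6.80, 6.81 and 6.77. The MCAO signals ran from 7.03 over a median of 7.57 to 7.90, again with no overlap and with MCAO 4 lowest. The difference was 0.77 ± 0.12 (SE; limma adjusted p = 0.00155), and 0.86 ± 0.07 without MCAO 4. A second Adamts9 probe set was near-constant at 6.65, and averaging both gave 0.39.

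Adamts5 (Entrez Gene 304135), the main aggrecan-cutting enzyme of mouse cartilage, gave 6.44, 6.32, 6.33, 6.22 and 6.38 in Sham. Its MCAO signals were 6.54 at the lowest, 6.80 at the median and 7.02 at the highest, all above Sham by a narrow margin. The difference was 0.44 ± 0.09 (SE; limma adjusted p = 0.00364).

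Adamts4 (Entrez Gene 66015), a lectican-cutting enzyme also found in oligodendrocytes, gave 8.32, 8.45, 8.60, 8.47 and 8.38 in Sham. Its MCAO signals ran from 8.49 over 8.75 to 9.19. The groups overlapped in 1 rat, MCAO 4. The difference of 0.33 ± 0.11 (SE; limma adjusted p = 0.0286) was the smallest among the varying proteases that passed. It did not pass when any 1 of MCAO 3, MCAO 6, Sham 1, Sham 2, Sham 4 or Sham 5 was left out (adjusted p = 0.0513, 0.0551, 0.066, 0.0576, 0.0519 and 0.059, with differences of 0.30 to 0.34).

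Among the secreted MMPs, the gelatinase gene Mmp9 (Entrez Gene 81687), a product of neutrophils and other cells, had Sham signals of 6.52, 6.35, 6.55, 6.36 and 6.44. The MCAO signals were 6.35 at the lowest, 7.61 at the median and 7.80 at the highest. In 6 MCAO rats Mmp9 lay above every Sham rat, within 7.43 to 7.80, and MCAO 4 lay inside the Sham range. The difference was 1.01 ± 0.23 (SE; limma adjusted p = 0.00574), from means of 7.46 ± 0.50 in MCAO (SD, n = 7) and 6.44 ± 0.09 in Sham (SD, n = 5). Without MCAO 4 it was 1.20 ± 0.07. A second Mmp9 probe set showed the same rat apart, at 6.03 in MCAO 4 against a Sham range of 5.96 to 6.19, with a difference of 0.82 ± 0.19.

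Mmp12 (Entrez Gene 117033), the macrophage elastase, gave 6.16, 6.02, 6.09, 6.16 and 6.05 in Sham. In MCAO its lowest signal was 6.55, its median 7.30 and its highest 7.72. The groups did not overlap, and MCAO 4 and MCAO 7 lay well below the other 5. The difference was 1.09 ± 0.20 (SE; limma adjusted p = 0.00284).

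Mmp3 (Entrez Gene 171045), stromelysin-1, which cuts matrix proteins and can activate other MMP precursors, gave 5.99, 5.79, 5.85, 5.87 and 5.95 in Sham. The MCAO signals ran from 6.26 over 6.85 to 7.59, all above Sham. Only 4 MCAO arrays and 0 Sham arrays exceeded 6.61, so Mmp3 was not among the genes tested. A fit over all genes without the filter gave 0.95 ± 0.22 (SE; limma adjusted p = 0.00723). Here MCAO 1 was highest and MCAO 7 lowest, and MCAO 4, at 7.00, lay above the median.

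Among the membrane-bound MMPs, Mmp14 (Entrez Gene 81707), which cuts collagen at the cell surface and activates pro-MMP2, gave 6.98, 7.05, 7.28, 7.08 and 7.16 in Sham. Its MCAO signals were 7.61 at the lowest, 8.08 at the median and 8.58 at the highest, with no overlap. The lowest was MCAO 2, and MCAO 4 came next at 8.02, close to the median. The difference was 1.05 ± 0.15 (SE; limma adjusted p = 0.00112). A second Mmp14 probe set was near-constant, with a difference of 0.0022, so averaging both gave 0.52.

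Mmp16 (Entrez Gene 65205), another membrane-bound MMP, had 1 probe set, which gave 7.75 in all 12 arrays (difference -0.00014, limma adjusted p = 0.434). Both Mmp2 (Entrez Gene 81686) probe sets, of the gelatinase that MMP14 activates, were near-constant at 7.11 and 6.62. The 7.11 probe set passed the limma test (adjusted p = 0.0363) with a difference of 0.00026, whose sign turned after each rescaling of the arrays. Such probe sets do not show that a gene was unchanged: for Mmp14, Adamts5 and Adamts9, 1 probe set was near-constant and the other differed between the groups.

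**Figure D2:**
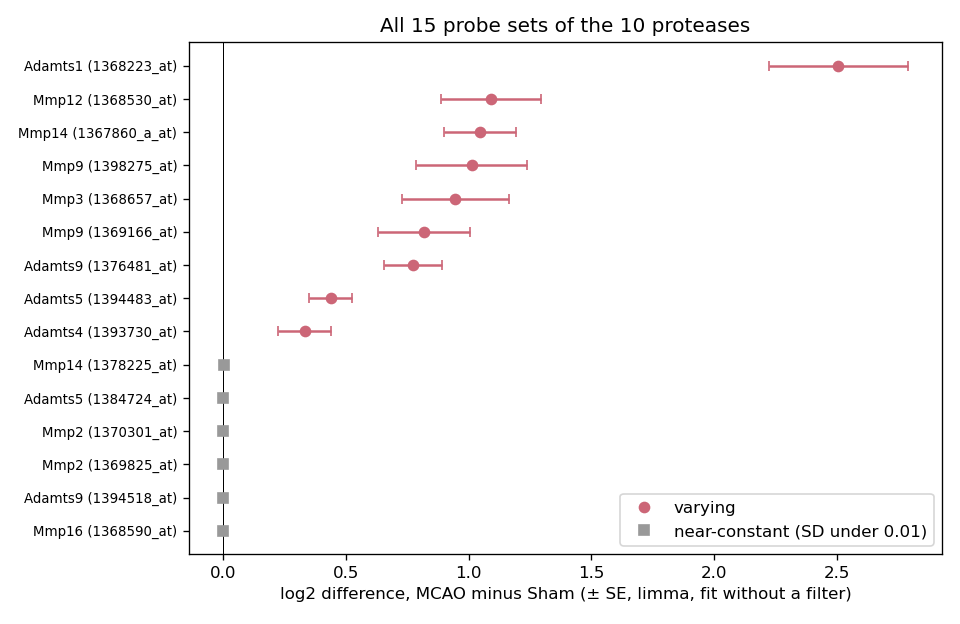
Log2 difference, MCAO minus Sham (horizontal axis, ± SE from a limma fit without a filter), for all 15 probe sets of the 10 proteases, with varying probe sets as circles and near-constant ones as squares. The 9 varying probe sets lie between 0.33 and 2.51 and the 6 near-constant ones at 0.

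Of 13 protease probe sets that passed the filter, 8 varied and all 8 were called higher in the limma fit of every probe set, where 37.0% of 8438 varying probe sets were. The groups were fully separate for 5 of the 7 tested varying genes (MCAO above), and for 17.9% of all varying genes tested. Nothing is read from either count, since both Mmp9 probe sets and those of Mmp12 and Adamts5 passed the filter through MCAO arrays alone. The spread was larger in MCAO for all 8 varying proteases, with an SD 2.21 (Adamts4) to 7.80 (Adamts9) times that of Sham. The median ratio over all varying genes was 1.96, and 89.4% of them had the larger SD in MCAO.

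MCAO 4 was the lowest of the 7 MCAO rats for 6 of the 8 varying proteases, the exceptions being Mmp3 and Mmp14. Relative to the Sham mean its log2 signal was -0.09 for Mmp9, 0.04 for Adamts4, 0.26 for Adamts9 and 1.11 for Adamts1. Its Mmp3 and Mmp14 signals were 1.11 and 0.92 above the Sham mean, inside the range of the other MCAO rats. No other rat was lowest for more than 1 protease, and MCAO 6 had the highest signals by median rank. Without MCAO 4 all 7 genes were still called higher. A low signal in MCAO 4 was not particular to the proteases. Of the related genes described below, Mmp13, Timp1, Plat, Plaur, Cd44, Col4a1, Cebpd and Stat3 also had their lowest MCAO signal in this rat. A2m and Fn1, which rose as well, did not. Nor was the signal of MCAO 4 low in every gene. Of the related genes that fell and were named by rule, Mmp15, Timp4 and Bcan had their highest MCAO signal in MCAO 4. These signals were 8.18, 8.17 and 9.63, and those of Mmp15 and Timp4 lay inside the Sham range. Adam22, Adam23 and Agrn, which fell as well, were highest in another rat. The share over all varying genes was not counted.

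**Figure D3:**
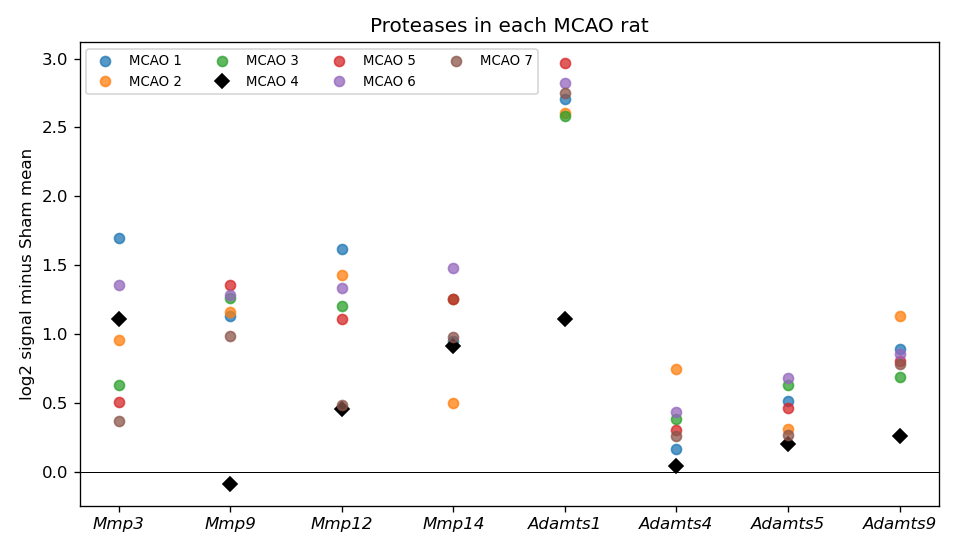
Log2 signal minus the Sham mean (vertical axis) of the 8 varying proteases in each of the 7 MCAO rats, 1 colour per rat, with MCAO 4 as black diamonds. MCAO 4 is lowest for 6 genes and lies among the other rats for Mmp3 and Mmp14.

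Whether the proteases varied together among the 7 MCAO rats was examined for all 28 pairs of the 8 varying genes. Pearson's r lay between -0.28 and 0.97, with a median of 0.50, and 0 pairs passed after adjustment over the 28 (exact permutation, smallest adjusted p = 0.278). Without adjustment 3 pairs passed by r and 1 by Spearman's rho. The highest r was that of Mmp9 and Adamts1, at 0.97 (exact permutation p = 0.0298, adjusted 0.278), with a rho of 0.64 (exact permutation p = 0.139, adjusted 0.648). It rested on MCAO 4 and MCAO 5, since r was -0.12 without them. Mmp14 and Adamts5 had an r of 0.72 (exact permutation p = 0.0595, adjusted 0.278) and a rho of 0.75 (exact permutation p = 0.0663, adjusted 0.648), and r was 0.68 without the 2 rats farthest from the Mmp14 median. Leaving out such rats turned the sign of r in 16 of the 28 pairs, and the median r was 0.11 without MCAO 4.

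Genes of similar pattern were sought only for Adamts1, Mmp14 and Adamts9, the tested varying proteases with the strongest limma statistic. Over the 7 MCAO arrays, and among 6338 varying genes, Adamts1 was most like Stk40 (r = 0.98), Hes1 (0.97) and Ier3 (0.97), which without MCAO 4 had an r of 0.49, 0.92 and 0.56. Adamts9 was most like Bag3 (0.99), a co-chaperone, Cdkn1a (0.99), a cell cycle inhibitor, and Midn (0.98), and these values were 0.95 or more without MCAO 4. Mmp14 was most like B2m, the light chain of MHC class I, Rab8a and Rarres2, each at 0.99 with and without MCAO 4. These are descriptions of 7 arrays, picked as the highest of many.

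The rest of both families was measured less well. For the counts in this and each later list, markers included, 35.2% of all varying genes were called higher and 34.2% lower. Some genes of low Sham signal, such as Mmp13 and Plaur, passed the filter through MCAO arrays alone. Nothing is therefore read from these counts. Of 16 other MMP genes 6 were tested and 4 varied: 3 fell and 1 rose. Mmp15, a membrane-bound MMP, fell by 0.39 (SE 0.08; limma adjusted p = 0.00323), as did Mmp17 and Mmp24, named after their values were seen, by 0.65 and 0.33. Mmp13, a collagenase, rose by 0.69 ± 0.18 (SE; limma adjusted p = 0.0108), and MCAO 4, at 6.01, again lay inside the Sham range of 5.92 to 6.04. Of 20 other ADAMTS and ADAMTS-like genes 8 were tested, and all 8 were near-constant. Of 11 ADAM genes, which encode membrane-anchored relatives, 9 were tested and 4 varied: Adam22 and Adam23, neuronal members without protease activity, fell by 0.61 and 0.45 (limma adjusted p = 0.0041 and 0.00282). With the mean of its probe sets Adam23 was at -0.15, and with its most variable probe set Adam22 was at -0.98. The sheddase genes Adam10 and Adam17, named after their values were seen, differed by 0.16 and 0.20 and did not pass (limma adjusted p = 0.152 and 0.101).

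Among 11 inhibitors and clearance receptors 8 varied, of which 4 rose and 1 fell, with a median log2 difference of 0.45 against 0.03 over all varying genes. Timp1, the inhibitor of most MMPs, had Sham signals from 7.06 to 7.28 and MCAO signals from 9.29 over a median of 11.96 to 12.11, a rise of 4.21 ± 0.47 (SE; limma adjusted p = 0.000434). MCAO 4 was lowest here too, the next rat being at 10.79. A2m, the plasma protease trap alpha-2-macroglobulin, rose by 1.20 ± 0.07 (SE; limma adjusted p = 5.2e-05), and MCAO 4, at 9.14, lay within the range of the others (8.78 to 9.22). Timp4 fell by 0.41 (SE 0.12; limma adjusted p = 0.0205). Timp2, a partner of MMP14 in the activation of pro-MMP2, and Sdc4, both named after their values were seen, rose by 0.64 and 1.07.

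Of 10 genes for activators and inducers of MMPs 6 varied, and 5 of them rose (median 0.59). Plat, tissue plasminogen activator, rose by 0.81 ± 0.14 and Plaur, the urokinase receptor, by 0.90 ± 0.16 (SE; limma adjusted p = 0.00237 and 0.00242). Plau, Furin and Sparc also rose, by 1.20, 0.22 and 0.37, and were named after their values were seen. Furin is the convertase that cuts the precursors of MMP14 and the ADAMTS enzymes.

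The substrates went both ways. Of 9 varying genes of the lectican matrix 3 rose, 3 fell and 3 did not pass, with a median of -0.06. Cd44, a hyaluronan receptor, rose by 2.29 ± 0.29 (SE; limma adjusted p = 0.000862), and Bcan, the lectican brevican, fell by 0.59 (SE 0.12; limma adjusted p = 0.00408). Named after their values were seen, Tnc, tenascin-C, and Ncan, neurocan, rose by 1.44 and 0.74, and the link protein genes Hapln1 and Hapln4 fell by 0.33 and 0.37. Of 12 varying basement membrane and collagen genes 6 rose and 1 fell (median 0.30). Fn1, fibronectin, rose by 0.98 ± 0.16 and Col4a1, a chain of type IV collagen, by 0.84 ± 0.15 (SE; limma adjusted p = 0.00176 and 0.00256). Agrn, the proteoglycan agrin, fell by 0.50 (SE 0.15; limma adjusted p = 0.021), a call lost without Sham 2, Sham 3 or Sham 4 (adjusted p = 0.0552, 0.0564 and 0.0529).

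Of 21 transcription factors and cytokines known to act on MMP genes 19 varied. Of these 16 rose (median 1.13), beside 35.2% called higher over all varying genes. Named after their values were seen, Atf3, Fosl1, Nfkb2, Il1b, Il6 and Tgfb1 had Sham means under 6.61. They passed the filter mainly through MCAO arrays, so nothing is read from the count. Cebpd rose by 2.30 ± 0.18 and Stat3 by 1.88 ± 0.16 (SE; limma adjusted p = 0.000112 and 0.000198). Those named after their values were seen include the AP-1 family genes Atf3 (2.33), Fosl1 (1.56) and Jun (1.23) and the cytokine gene Il1b (1.13). The mean log2 difference of the 19 genes from Sham was 0.33 in MCAO 4 and 0.98 to 1.34 in the other MCAO rats, so it was lowest in the same rat as most proteases. Whether these factors have a part in the protease levels was not tested.

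**Figure D4:**
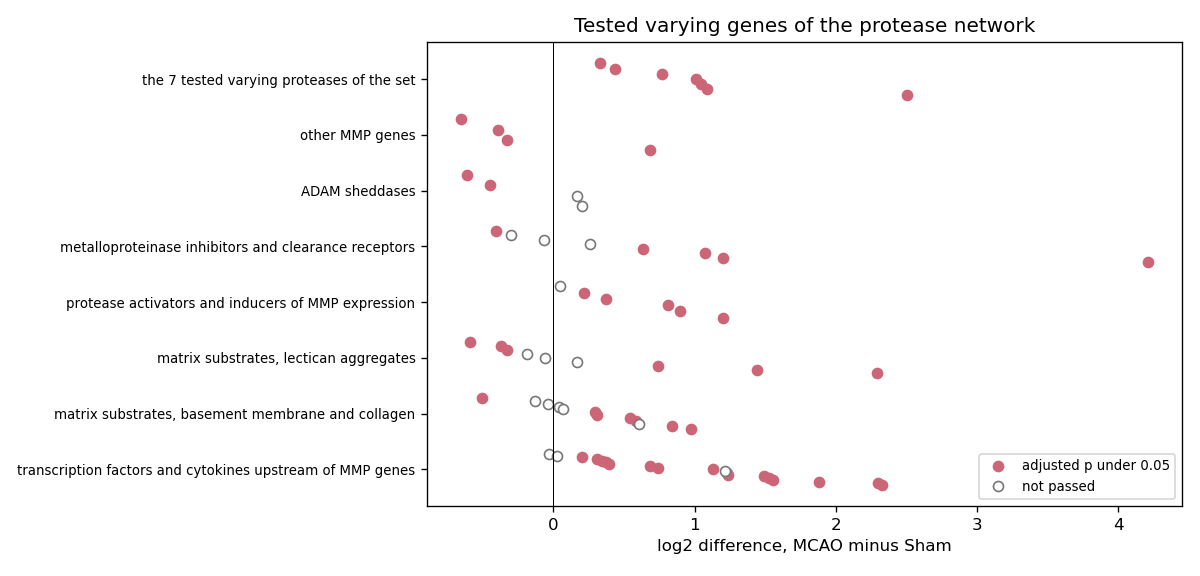
Log2 difference, MCAO minus Sham (horizontal axis), for each tested varying gene of the protease set and of 7 related lists, 1 point per gene, filled where the limma adjusted p was under 0.05. The 7 proteases lie between 0.33 and 2.51, and the rightmost point is Timp1 at 4.21. Every related list except that of activators and inducers has points on both sides of 0.

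The marker means of neutrophils and of macrophages, both sources of MMPs, lay higher in every MCAO rat than in any Sham rat. Those of pericytes and smooth muscle did so by a narrow margin, with only 2 of 5 varying markers called higher. The means of microglia and of endothelial markers overlapped between the groups, though single markers of both moved in opposite directions. Of 11 neutrophil markers 7 were on the array, 4 were tested and 3 varied (S100a8, S100a9 and Lcn2, the last also made by astrocytes). Their Sham means of 6.48, 6.27 and 6.0 lay under 6.61, so they passed the filter mainly through MCAO arrays. Nothing is therefore read from their separation. Their mean log2 difference from Sham was 1.13 to 2.69 in MCAO and -0.12 to 0.20 in Sham. In MCAO 4 it was 1.62, near the MCAO median of 1.60. All 7 tested of 10 monocyte and macrophage markers rose, with a mean of 1.36 to 2.37 in MCAO (1.54 in MCAO 4) against -0.05 to 0.09 in Sham. Cd14 among them also had a Sham mean under 6.61, at 6.48. Of 8 tested microglia markers 6 varied, with 4 higher and 2 lower, and their mean was 0.07 to 0.57 in MCAO (0.55 in MCAO 4) against -0.08 to 0.19 in Sham. This mean joins opposite differences: P2ry12 (-1.26) and Tmem119 (-0.52) were lower, and Aif1 (0.74), Itgam (0.92), Tyrobp (1.61) and Ptprc (1.19) higher. Endothelial markers had 5 higher and 1 lower of 8 varying, with a mean of 0.04 to 0.38 in MCAO (0.04 in MCAO 4) against -0.16 to 0.09 in Sham. The part of these cell types in the protease differences was not tested, and the neutrophil and macrophage marker means of MCAO 4, whose Mmp9 lay in the Sham range, lay within the range of the other MCAO rats. Fibroblast markers rose in 1 of 8 varying genes, and 7 did not pass. Pericyte and smooth muscle markers rose in 2 of 5, with a mean of 0.14 to 0.56 in MCAO (0.46 in MCAO 4) against -0.21 to 0.13 in Sham. This mean also joins opposite differences, and the median of the list was -0.08. Tagln (1.555) and Des (0.78) were higher, and Rgs5 (-0.18), Abcc9 (-0.08) and Myh11 (-0.22) did not pass. Astrocyte markers rose in 1 and fell in 4 of 7, neuron markers rose in 1 and fell in 6 of 11 (mean -0.35 to -0.07 in MCAO and -0.06 to 0.06 in Sham), and oligodendrocyte markers fell in 2 of 5. Neither of the 2 varying precursor markers nor either of the 2 red blood cell markers passed.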

How the data were processed

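Left-hemisphere RNA was labelled as biotinylated cRNA from 100 ng, per the labels' protocols. The authors deposited 1 table with values of 31099 probe sets on each of 12 arrays, on a log scale by its range (5.00 to 14.01). The base is not stated, and log2 was assumed for the deposited values. The sources used here do not give the software, background correction, summarization or normalization. Array medians spanned 0.05, so values were used as deposited.

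Probe sets of 1 gene (20826) were named from the platform annotation with symbols updated through RefSeq, and 436 with several genes and 9780 with none were not used. A probe set was kept where 5 or more arrays exceeded 6.61, the 25th percentile of all values other than controls (17238 kept). The probe set with the highest mean represented a gene. MCAO was tested against Sham by limma (version 3.58.1, R 4.3.3; lmFit and trended eBayes). P-values were two-sided, adjusted by Benjamini-Hochberg over 12153 genes, and called under 0.05. The fit was tested on simulated data in which both groups had the Sham SD, so its behaviour under the larger MCAO spread was not tested. Pairs of proteases were compared by exact two-sided permutation of pairings. The number of arrays limits the precision.

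All proteases are named. Of each related list the 2 varying genes with the strongest limma statistic, the strongest of a minority direction and Timp1 were named by rule. The proteases and lists were chosen with earlier results of these data known. No genome build is named for the arrays, so only promoter positions, on GRCr8, are given. Alternatives were other scalings, filters, probe set choices and fit settings, an exact permutation test, the replicate number as a block, and leaving out each array.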

Additional observations from a re-analysis of the deposited data

Results flagged for a closer look

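Each of the 8 varying proteases was examined in both groups (16 groups) for a rat whose gap to its nearest neighbour took up an unusual share of the group's range, by Dixon's 95% critical values of 0.568 for 7 arrays and 0.71 for 5. Chance gives about 1 such rat in 20 groups, and 2 were found, both in MCAO 4. The groups are of the same rats and so not independent. Both flags fell on 1 rat, so they are not counted as 2 separate events. The r of 0.97 between the 2 flagged genes over the MCAO rats includes that rat. It was 0.40 without MCAO 4, so nothing is read from it here. Adamts1 was 8.04 in MCAO 4 and 9.51 to 9.89 in the other MCAO rats, a gap of 0.796 of the range. Mmp9 was 6.35 in MCAO 4 and 7.43 to 7.80 in the others, a gap of 0.745 of the range. The cause was not tested.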

How the results depend on the processing

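All 7 tested varying proteases stayed higher in MCAO under every alternative in which they were tested. The number called higher was 5 to 8 over the alternatives, with 8 without a filter (Mmp3 added) and 5 with the filter at the 50th percentile, where Mmp12 and Adamts5 were not tested. The number called and at least 2-fold higher was 4, and 2 with the mean of probe sets, 2 with the replicate block and 2 to 4 on leaving out single arrays (2 without MCAO 6). Varying genes called higher were 1432 and lower 1347 with the replicate block, which uses 10 arrays. Same-numbered rats share only a number, so the pairing was not used (correlation of deviations -0.335 to 0.536, with 2 of 5 Sham arrays closest to their own number). With this block Mmp9 (adjusted p = 0.0508), Adamts4 (0.102), Mmp13 (0.0858) and Timp4 (0.182) were not called by limma. The near-constant Mmp2 value turned to -0.0088 after quantile normalization, -0.013 with equal medians and -0.0068 with equal 75th percentiles, and that of Mmp16 was called at -0.023 after quantile normalization. The adjusted p of Adamts4 ranged from 0.00346 to 0.102. For the 16 related genes named by rule, 408 of 413 values under alternatives kept their call, and the genes named after their values were seen were not recomputed. Mmp3 was given alternatives without a filter, chosen after seeing the data, and was called in all 20 (adjusted p = 0.00164 to 0.04).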

Other observations

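In the GRCr8 gene order of the RefSeq table, Adamts1 and Adamts5 lie next to each other on chromosome 11, with 0 listed genes between them. Their log2 differences were 2.51 and 0.44, and their r over the 7 MCAO rats was 0.57 (exact permutation p = 0.145, adjusted 0.407), with a rho of 0.36 (exact permutation p = 0.444, adjusted 0.733), and r was 0.19 without MCAO 4 and MCAO 5. Mmp12 and Mmp3 lie on chromosome 8 with 1 listed gene between them, the MMP gene Mmp1b. Their r was 0.54 (exact permutation p = 0.214, adjusted 0.46), with a rho of 0.57 (exact permutation p = 0.2, adjusted 0.679), and r was -0.08 without MCAO 1 and MCAO 7.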
